A study of Drosophila melanogaster with 2 samples.

Results

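Expression of the Notch receptor, its ligands and its core modulators was compared between neural stem cells (NSCs) and neurons of Drosophila melanogaster embryos. The set holds 10 genes, N, Dl, Ser, fng, neur, H, Su(H), mam, kuz and sca, found by exact symbol among the 13623 genes of the deposited table. All 10 had a value in both libraries. The measurement was nuclear RNA-seq of 2 libraries, 1 per cell type. Nuclei were taken from whole embryos by INTACT, which captures nuclei on anti-Flag beads by a tag put on the nuclear envelope of the wanted cells. Both lines carried the transgene UAS-3xFLAG-blrp-mCherry-RanGap, whose product is that tag and which the yeast activator Gal4 switches on. NSC nuclei came from embryos of the Sca-Gal4/cyo line aged 5 to 7 h after egg laying (AEL). Neuronal nuclei came from embryos of the Elav-Gal4 line aged 12 to 14 h AEL. The NSC embryos came from parents with the Sca-Gal4 chromosome over the CyO balancer, so only nuclei with the driver could carry the tag. Cell type, embryo age and driver line changed together, and their parts in any difference cannot be told apart. With 1 library per group the differences have no replicate check and no p-value is given.

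Notch is a transmembrane receptor that signals between touching cells. A ligand of the Delta or Serrate kind on one cell pulls on Notch of its neighbour, the metalloprotease Kuzbanian cuts the receptor outside the membrane, and gamma-secretase then frees its intracellular part. That part enters the nucleus, joins Su(H) and the co-activator Mastermind, and switches on target genes such as those of the Enhancer of split complex. In the fly neurectoderm the pathway carries out lateral inhibition, by which a cell that becomes a neuroblast keeps its neighbours epidermal, and in the lineage of a neuroblast it sets sister cells apart.

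Values are FPKM, fragments per kilobase of transcript and per 1000000 mapped fragments, as computed by the authors. The log2 change was taken after 1 was added to the FPKM of each library, neuron against NSC. It is smaller than the plain ratio for weakly expressed genes, and a gene was called at 2-fold. Low FPKM values move in steps of whole fragments, which put the depth near 65.2 M mapped fragments for the NSC library and 69.5 M for the neuron library (M, 1000000). Fold values below are plain FPKM ratios, with 95% intervals made from estimated fragments (exact Clopper-Pearson), and these cover counting error only. In the check of the labels, 4 of 9 NSC markers were at least 2-fold lower in the neuron library, with a summed level of 502 FPKM in NSCs and 214 FPKM in neurons. Beside this, 16.6% of all genes with at least 1 FPKM in at least 1 library were called lower. Most of the fall in the sum came from l(1)sc (129.9 and 2.11 FPKM) and ac (49.9 and 1.49 FPKM). The 5 markers not called lower stayed within 2-fold. Of these, ase (24.1 and 12.3 FPKM) and wor (32.7 and 17.7 FPKM) had lower values in neurons. The remaining 3 had higher values in neurons: insc (10.5 and 15.5 FPKM), pros (47.0 and 48.8 FPKM) and sna (47.9 and 54.0 FPKM). Of 8 neuronal markers 7 were at least 2-fold higher, with a summed level of 75.2 FPKM in NSCs and 520.3 FPKM in neurons. The exception was elav, whose driver chose the neuronal nuclei, at 46.5 FPKM in NSCs and 77.03 FPKM in neurons. No marker was listed at 0.

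Dl, neur and sca fell by more than 2-fold from the NSC to the neuron library, whereas Ser and fng rose. The receptor N, its protease kuz and the nuclear factors Su(H), mam and H stayed within 2-fold. Within 2-fold were 5 of 10 genes, beside 56.5% of the 10158 genes with at least 1 FPKM in at least 1 library. Thus 3 of 10 genes were called lower, beside 16.6% of the genes compared. Likewise 2 of 10 were called higher, beside 26.9% of them. The median log2 change was -0.64 over the 10 genes and 0.14 over all genes compared. In bulk nuclei, fewer cells of a type and less RNA per cell cannot be told apart.

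**Figure D1:**
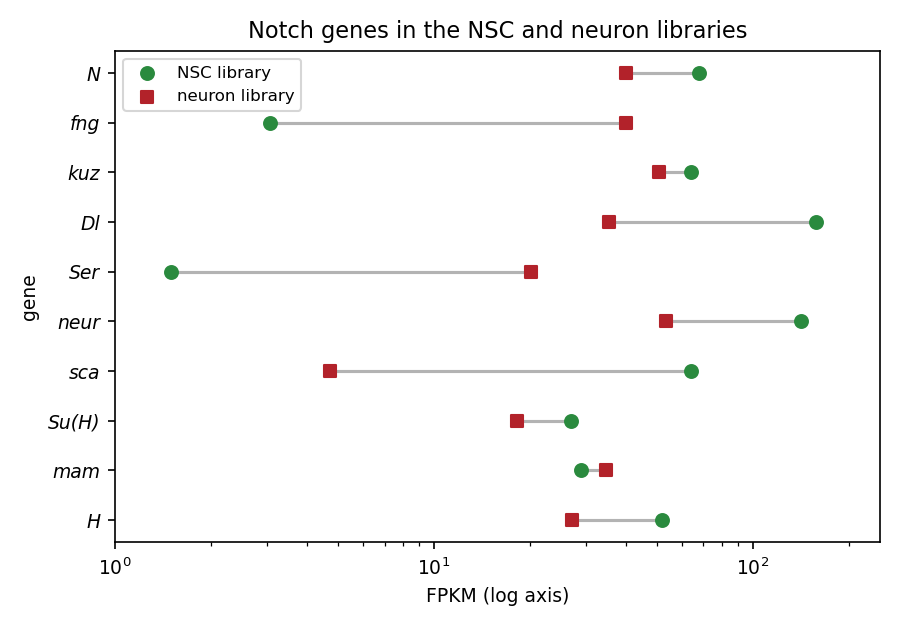
FPKM of the 10 Notch genes on a log axis, with the NSC library as green circles and the neuron library as red squares, 1 value per library and no error bar. Dl, neur and sca lie far to the right in NSCs, Ser and fng lie far to the right in neurons, and N, kuz, Su(H), mam and H lie closer together.

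The receptor itself was examined first. N, on chromosome X, was at 67.9 FPKM in NSCs and 40.1 FPKM in neurons. It was 1.69-fold lower in neurons (interval 1.67 to 1.72), and with a log2 change of -0.74 it was not called. Ranked among all genes, N stood at percentile 88.2 in NSCs and 81.3 in neurons, so receptor RNA was abundant in both. The protease gene kuz, on arm 2L, was at 63.9 FPKM in NSCs and 50.8 FPKM in neurons. Its log2 change was -0.32, and the N to kuz ratio of FPKM was 1.06 in NSCs and 0.789 in neurons.

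The glycosyltransferase gene fng behaved otherwise. Fringe adds N-acetylglucosamine to O-fucose on the extracellular repeats of Notch, which favours its response to Delta over Serrate. On arm 3L, fng was at 3.05 FPKM in NSCs and 40.0 FPKM in neurons. This 13.1-fold rise (interval 11.7 to 14.6) gave a log2 change of 3.34, and 275 of the 10158 genes rose more. The NSC value rested on about 350 estimated fragments. In NSCs the FPKM of N was 22.3 times that of fng, whereas in neurons receptor and modifier were at nearly the same FPKM. The gene moved from percentile 44.5 to percentile 81.3.

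The ligands moved in opposite directions. Dl, on arm 3R, had the highest level of the 10 genes in NSCs at 157.5 FPKM and was at 35.5 FPKM in neurons. It fell 4.44-fold (interval 4.35 to 4.53), a log2 change of -2.12, and only 278 genes fell more. Ser, also on arm 3R, had the lowest level in NSCs at 1.498 FPKM and was at 20.1 FPKM in neurons. It rose 13.5-fold (interval 12.3 to 14.7), a log2 change of 3.08, and 368 genes rose more. Ser was thus above the 1 FPKM limit in both libraries, with about 550 estimated fragments behind the NSC value.

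Dl remained the higher ligand in both libraries, but by very different margins. Its FPKM was 105 times that of Ser in NSCs and 1.76 times in neurons. Ser made up 0.942% of the summed FPKM of both ligands in NSCs and 36.2% in neurons, while the sum went from 159 to 55.6 FPKM. Relative to the receptor, Dl had 2.32 times the FPKM of N in NSCs and 0.884 times in neurons.

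Marker lists of other tissues were summed in the same libraries. Beside the counts that follow, 26.9% of all genes compared were called higher and 16.6% lower. In the tracheal list 3 of 5 genes were called higher and 1 lower, with a summed level of 122 FPKM in NSCs and 1459.9 FPKM in neurons. Of the latter sum, 869.5 FPKM came from Osi6 alone, and the gene called lower was btl (16.5 and 5.72 FPKM). The muscle list had 3 of 5 genes higher and 1 lower (520.2 and 2606 FPKM summed). Act57B alone was at 2131 FPKM in neurons, and the gene called lower was twi (19.8 and 8.77 FPKM). Among hemocyte markers 2 of the 4 compared were higher (74.1 and 336 FPKM summed over all 5), and among glial markers 2 of 6 (205 and 340.3 FPKM summed). The epidermal list had 1 of 4 genes higher and 1 lower, with a summed level of 239.8 FPKM in NSCs and 163 FPKM in neurons. The lower sum in neurons came from Cpr47Eg, at 158 FPKM in NSCs and 33.5 FPKM in neurons. The gene called higher, sha, was at 0.422 and 43.7 FPKM. Within 2-fold were svb (31.3 and 26.8 FPKM) and grh (50.0 and 59.4 FPKM). None of these markers was listed at 0 in either library. The paper scored the purified nuclei of both kinds as mostly of the wanted cell type. Whether nuclei of other tissues had a part in the levels of Ser and fng was not tested.

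**Figure D2:**
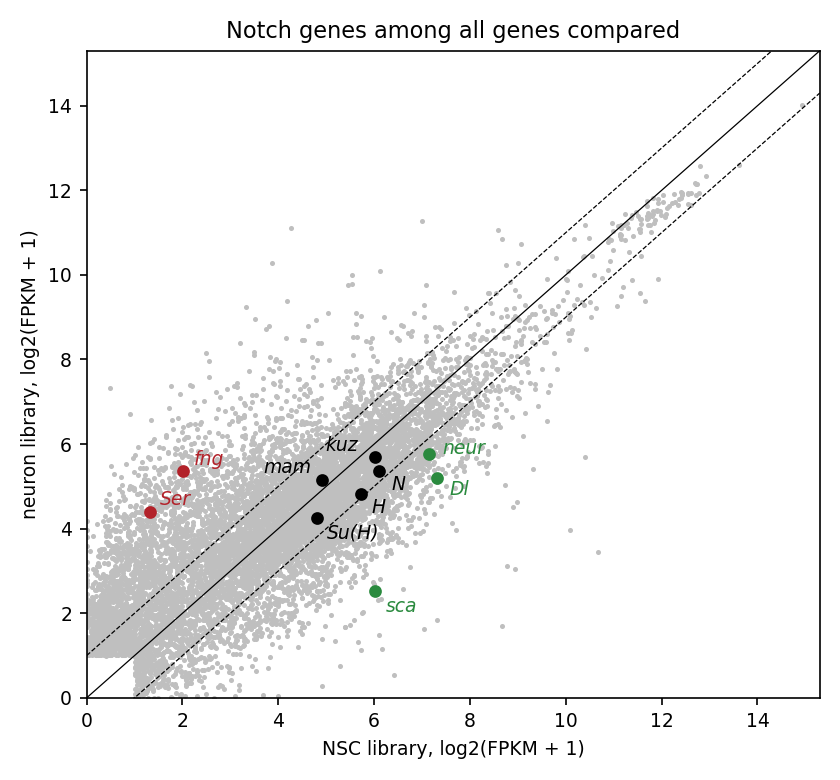
Level of each gene compared (grey, 10158 genes) and of the 10 Notch genes in the NSC library (horizontal axis) and the neuron library (vertical axis), both as log2(FPKM + 1). The solid line marks equal levels and the dashed lines 2-fold differences; fng and Ser (red) lie above them, Dl, neur and sca (green) below, and N, kuz, H, Su(H) and mam (black) between.

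Genes that act on the ligand or on the spacing of neural precursors were the next group. Neuralized, the product of neur, is an E3 ubiquitin ligase that makes Delta active by sending it into endocytosis. The gene lies on arm 3R and was at 141 FPKM in NSCs and 53.4 FPKM in neurons. It fell 2.64-fold (interval 2.59 to 2.69), a log2 change of -1.39. The fall of neur was smaller than that of its substrate gene, so its level per unit of Dl was 0.897 in NSCs and 1.51 in neurons. In neurons neur had the highest FPKM of the set. An annotated antisense RNA (asRNA:CR31429) shares 38.8% of the exonic length of neur, and because the strandedness of the libraries was not stated, reads of both cannot be told apart.

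Scabrous, a secreted fibrinogen-related protein, helps to space neural precursors and acts through Notch. The gene sca, on arm 2R, was at 64.0 FPKM in NSCs and 4.72 FPKM in neurons. This was a 13.5-fold difference (interval 12.8 to 14.4) and a log2 change of -3.51, and 34 of the 10158 genes fell more. It went from percentile 87.4 of all genes to percentile 42.1, and was the lowest of the set in neurons. The regulatory DNA of sca drove the tag by which the NSC nuclei were chosen, so its high level in that library is not an independent result. An antisense RNA (asRNA:CR45137) shares 10.4% of its exonic length.

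The nuclear factors all stayed within 2-fold. Su(H), the DNA-binding protein through which Notch acts, lies on arm 2L and was at 26.9 FPKM in NSCs and 18.2 FPKM in neurons. Its log2 change was -0.54. The co-activator gene mam, on arm 2R, was at 28.9 FPKM in NSCs and 34.7 FPKM in neurons. With a log2 change of 0.26 it was the only one of the 5 genes within 2-fold with a higher value in neurons. Hairless, the product of H, binds Su(H) and brings in the co-repressors Groucho and CtBP. H lies on arm 3R and was at 51.8 FPKM in NSCs and 27.0 FPKM in neurons, 1.92-fold lower (interval 1.87 to 1.96). Its log2 change of -0.92 was the nearest to the 2-fold limit among the genes not called.

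Ratios between these factors were compared next. The FPKM of H was 1.93 times that of Su(H) in NSCs and 1.49 times in neurons. Against mam, H stood at 1.79 in NSCs and 0.778 in neurons, so the order of H and mam was opposite in the libraries. The FPKM of mam was 1.08 times that of Su(H) in NSCs and 1.91 times in neurons.

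Levels of the 10 genes lay closer together in neurons than in NSCs. The highest was 105 times the lowest in NSCs (Dl and Ser) and 11.3 times in neurons (neur and sca). The SD of log2(FPKM + 1) over the 10 genes was 2.00 in NSCs and 0.96 in neurons, compared with 2.29 and 1.97 over all genes compared. This narrowing came from Ser and fng, which rose from 1.498 and 3.05 FPKM in NSCs. Without them the levels ran from 26.9 to 157.5 FPKM in NSCs and from 4.72 to 53.4 FPKM in neurons. The remaining genes thus did not lie closer together in neurons. For N, H, Su(H), mam and kuz alone the highest to lowest ratio was 2.53 in NSCs and 2.80 in neurons. These are the 5 genes that stayed within 2-fold, so their steady spread follows from how they were grouped and is not a separate result.

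In NSCs the order from high to low was Dl, neur, N, sca, kuz, H, mam, Su(H), fng and Ser. The neighbours sca and kuz, with 63.96 and 63.91 FPKM, did not differ beyond counting error. In neurons the order was neur, kuz, N, fng, Dl, mam, H, Ser, Su(H) and sca. There N and fng (40.1 and 40.0 FPKM) and Dl and mam (35.5 and 34.7 FPKM) did not differ beyond counting error. In neurons each further pair of neighbours except Su(H) and sca stood within 1.34-fold of each other. Close steps in NSCs were 1.11-fold from Dl to neur and 1.06-fold from N to sca. Those from kuz to H and from mam to Su(H) were 1.23-fold and 1.08-fold. Whether steps of this size exceed the variation between preparations is not known from 1 library each.

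Most of the set are long genes with much intron. By the current annotation N spans 37.4 kb, mam 69.2 kb and kuz 89.3 kb, while Su(H) spans 3.85 kb and H 6.98 kb. Exons make up 7.95% of the span of kuz, 8.29% of fng and 86.0% of H. Except for Su(H), 9 of the 10 lie in the longest 20% of genes, those that span at least 6.50 kb. Among the 2492 genes compared in that class, 43.5% were called higher and 6.06% lower in neurons, with a median log2 change of 0.76. All 5 called genes of the set, Dl, neur and sca among those lower and Ser and fng among those higher, belong to it.

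The rest of the pathway was described from 5 further lists with 59 genes, all of them measured, of which 22 were called lower and 7 higher. The shares over all genes compared were 16.6% lower, 26.9% higher and 56.5% within 2-fold, with a median log2 change of 0.14, and each list's counts stand beside these. Of 15 genes for glycosylation and cleavage of the receptor, 3 were called lower (16.6% of all genes compared) and 2 higher (26.9%), with a median log2 change of -0.30. Under TPM scaling 2 were lower and 3 higher, with Tsp86D now called higher (1.05). The gamma-secretase subunit gene pen-2 fell from 70.8 to 19.6 FPKM (log2 change -1.80). The other subunit genes stayed within 2-fold, with Psn at 79.8 and 59.0 FPKM, nct at 80.7 and 44.8 FPKM, and aph-1 at 69.0 and 50.5 FPKM in NSCs and neurons. The glucosyltransferase gene rumi fell from 25.7 to 9.35 FPKM (-1.37), and the fucosyltransferase gene O-fut1, whose product adds the fucose that Fringe extends, fell from 60.03 to 28.6 FPKM (-1.04). O-fut1 lost the call under TPM scaling, under upper quartile scaling and with a pseudocount of 5. Hence the enzyme gene fng and the gene of the preceding step moved in opposite directions. The ADAM protease genes related to kuz rose, Tace from 4.96 to 29.0 FPKM (2.33) and Kul from 1.55 to 9.24 FPKM (2.00). Tsp3A, a tetraspanin gene, changed least at 15.9 and 15.2 FPKM.

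Genes of ubiquitination and endocytic traffic had the largest share within 2-fold of the 5 further lists. Of 16 genes, 14 stayed within 2-fold, compared with 56.5% of all genes, and the median log2 change was 0.07. The arrestin gene krz fell from 80.4 to 32.4 FPKM (-1.29) and the kinase gene Nak rose from 17.9 to 43.2 FPKM (1.22). Under TPM scaling alpha-Adaptin was called higher as well. The ligase gene mib1, which acts on both ligands as neur does, was at 17.6 FPKM in NSCs and 18.6 FPKM in neurons. The inhibitor numb, inherited by one daughter of a dividing precursor, was at 43.7 and 45.5 FPKM, and Nedd4 changed least at 40.6 and 39.2 FPKM.

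Nuclear co-repressors and co-activators had lower values in neurons throughout, except that skd was above 0 under TPM and upper quartile scaling. Of 12 genes, 7 were called lower and none higher, with a median log2 change of -1.06. Beside this, 16.6% of all genes compared were called lower. The gene of the co-repressor insv fell from 139.6 to 23.8 FPKM (-2.50). It was followed by the histone chaperone gene asf1, from 79.7 to 19.3 FPKM (-1.99), and the histone deacetylase gene Rpd3, from 237.8 to 69.1 FPKM (-1.77). The gene of the ubiquitin ligase subunit ago, which in flies limits Notch protein, fell from 181 to 58.6 FPKM (-1.61), and Cdk8 from 21.4 to 7.65 FPKM (-1.37). By this role ago is neither a co-repressor nor a co-activator, but it was counted in this list and not in that of ubiquitination. The Hairless partners were gro, at 197.8 and 97.6 FPKM (-1.01), and CtBP, at 385 and 209 FPKM (-0.88). Bx42 (-1.11) and gro lost the call under TPM and upper quartile scaling, which left 5 genes called lower, and gro also with a pseudocount of 5. Several of these genes act in many processes besides Notch signalling.

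**Figure D3:**
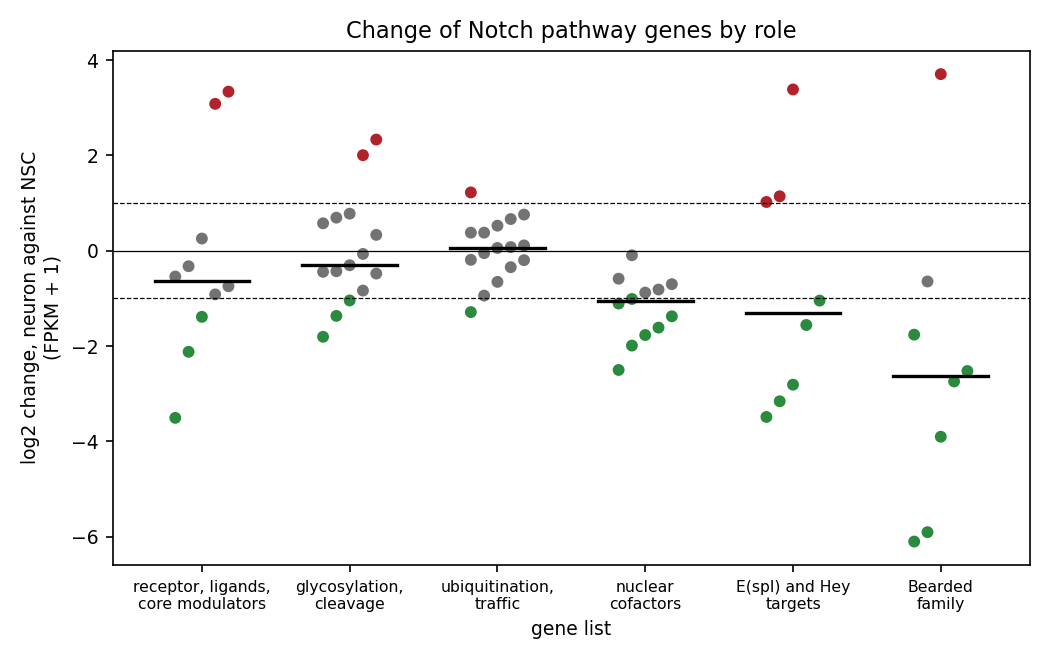
Log2 change of each gene in the 10-gene set and in 5 further Notch pathway lists, with 1 point per gene, list medians as bars and dashed lines at 2-fold; red points were called higher and green points lower in neurons. The nuclear cofactors, E(spl) genes and Bearded family lie mostly below the lower line, whereas 14 of 16 genes of ubiquitination and traffic lie between the lines.

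Of the 8 target genes, 5 Enhancer of split genes were called lower, beside 16.6% of all genes compared, and 3 genes higher, beside 26.9%. E(spl)m5-HLH fell from 196 to 16.6 FPKM (-3.49), E(spl)mdelta-HLH from 114.6 to 12.0 FPKM (-3.16), E(spl)mgamma-HLH from 330.1 to 46.3 FPKM (-2.81) and E(spl)m8-HLH from 106 to 35.4 FPKM (-1.56). Hey rose from 1.03 to 20.2 FPKM (3.38). E(spl)mbeta-HLH rose from 40.0 to 89.6 FPKM (1.14) and E(spl)m3-HLH from 22.8 to 47.5 FPKM (1.02), the latter losing the call with a pseudocount of 5. E(spl)m7-HLH (-1.05) lost it under TPM and upper quartile scaling. Of the 8 Bearded family genes, whose products inhibit Neuralized, 6 were called lower, beside 16.6% of all genes compared, and 1 higher, beside 26.9%. The log2 changes of Brd and BobA were -6.10 and -5.90, and those of E(spl)m4-BFM, Ocho and Tom were -3.90, -2.74 and -2.52. BobA has near-identical copies, which makes its values from uniquely mapped reads uncertain. The least changed gene was E(spl)m2-BFM, at 97.4 and 62.0 FPKM (-0.64), and E(spl)m6-BFM rose from 3.09 to 52.4 FPKM (3.71).

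**Figure D4:**
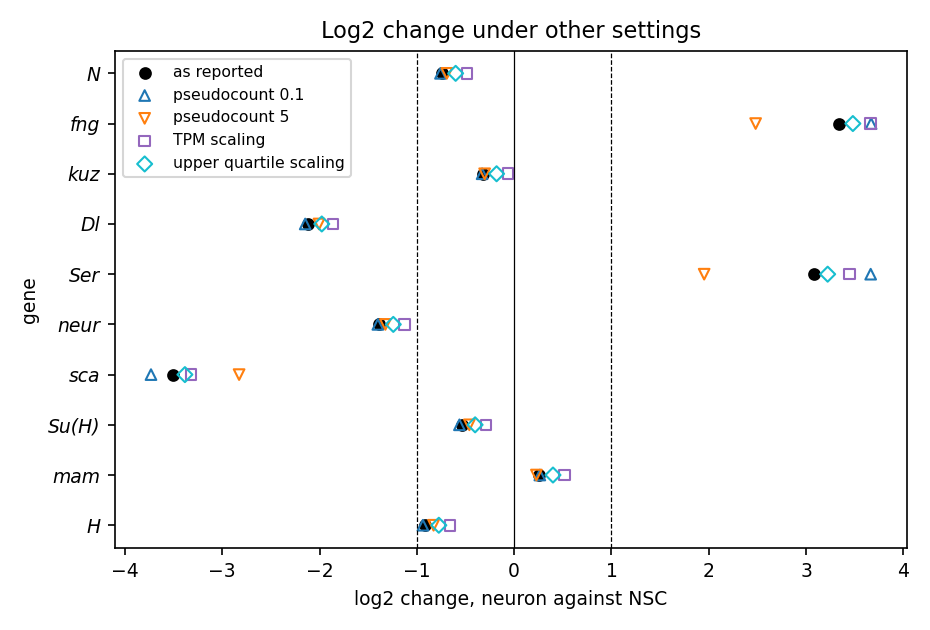
Log2 change of the 10 Notch genes as reported (black) and under other pseudocounts and scalings (open symbols), with dashed lines at 2-fold. Each gene stays on its side of these lines and of 0; Ser ranges from 1.95 to 3.66 and kuz from -0.33 to -0.06.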

How the data were processed

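The labels and the study's methods state that nuclear RNA was freed of genomic DNA, made into standard Illumina libraries, sequenced on a HiSeq and aligned with TopHat 1.3.1 to FlyBase transcripts, and that uniquely mapped reads passed to Cuffdiff 1.3.0. The labels describe cross-linked embryos, the methods embryos without crosslinking. The authors deposited FPKM, 1 value per gene and library. The header line, repeated before each of the 13623 gene rows, was removed, and no value below 0 or that was not a number was left. Groups came from the sample titles.

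Because FPKM are normalized, no model for counts was fitted. Genes with at least 1 FPKM in at least 1 library were compared with a pseudocount of 1. Depth was the value at which FPKM times exonic length less 200 bp, over genes with 1 transcript and over 600 bp of exons, came nearest to whole fragments up to 15. Lengths and arms came from Ensembl release 115 (BDGP6), another assembly than that of the authors, and coordinates were therefore left out. Among the table's symbols 11036 matched as written, 2429 by a RefSeq synonym, 2 by hand (Dl and n-syb) and 156 not at all. Fragments of genes with several transcripts are approximate. Scripts (Python 3.11.15, pandas 2.3.3, SciPy 1.17.1) were tested on simulated data.

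The 10 genes and the lists were chosen with earlier results of these data known, and the lists were written from general knowledge. The text names all 10 genes, and of each other list up to 5 called genes in each direction and the least changed gene. Psn, nct, aph-1, mib1, numb, gro, CtBP, Bx42, alpha-Adaptin, Tsp86D, E(spl)m7-HLH and elav were added after their values were seen. So were the markers l(1)sc, ac, ase, wor, insc, pros, sna, btl, Osi6, twi, Act57B, Cpr47Eg, sha, svb and grh. Alternatives were pseudocounts of 0.1 and 5, TPM, median and upper quartile scaling, other filters on low values and a 3-fold call.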

Additional observations from a re-analysis of the deposited data

How the results depend on the processing

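Each of the 10 log2 changes kept its direction and its side of 2-fold under the 5 alternatives of pseudocount and scaling. Filters on low values cannot alter the log2 change of a single gene. TPM, median and upper quartile scaling all raised the log2 changes, so they could not have brought H or N below the lower limit. Only the pseudocount of 0.1 moved H nearer to that limit, from -0.92 to -0.94. The median over the 10 genes ranged from -0.66 to -0.39. At 3-fold, 2 genes were lower (Dl and sca) and 2 higher. TPM scaling moved the median of all genes by 0.27 (log2) and upper quartile scaling by 0.14. Relative to the former shift the values of the 10 genes were nearly as reported. This holds by construction, because TPM scaling multiplies all values of a library by the same factor. Of all genes, 2735 were higher and 1684 lower; a pseudocount of 5 left 1631 higher, which pulls low genes toward 0 by construction, and TPM scaling gave 3500 higher and 1198 lower (74.5% against 61.9% higher among the called). TPM scaling gave 2 genes higher in place of 1 in the ubiquitination and traffic list, and 2 lower and 3 higher in place of 3 lower and 2 higher in the glycosylation and cleavage list. With 1 library per group, leaving out a replicate could not be done. No paired analysis was possible because each group holds 1 library. Counting error was small for these genes, and variation between preparations was not measured.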

Other observations

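The genes nearest to N in level over both libraries, by Euclidean distance in log2(FPKM + 1), were Trn, a nuclear import receptor gene, at 67.8 FPKM in NSCs and 39.3 FPKM in neurons (distance 0.031), CG9853, at 69.4 and 40.3 FPKM (0.031), and CG7338, at 68.3 and 41.0 FPKM (0.032). A further look gave 109 genes within a distance of 0.25 of N, so with 2 libraries many genes share its pattern.

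Among the 10 genes, fng and Ser rose by nearly the same factor (13.1-fold and 13.5-fold), and sca fell by 13.5-fold. In neurons fng was at 1.98 times the FPKM of Ser and in NSCs at 2.04 times, which follows from the near-equal factors and is not a separate result. How often other pairs of genes change by such close factors was not tested.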
